A study of Mus musculus with 3 samples.

Results

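Messenger RNA of 35 genes of glycolysis and of the response to low oxygen was followed in cultured primary mouse hepatic stellate cells, out of 17870 genes listed in any of the 3 libraries. The genes were taken from a fixed list and matched to the deposited tables by Entrez number, 34 by their symbol and Ero1l by its synonym (Ero1a). They are 16 glycolytic enzymes, 3 transporters of glucose or lactate, 3 kinases or bifunctional enzymes that set the flux, 12 other targets of hypoxia-inducible factor (HIF), and the HIF subunit gene Hif1a. All 35 were listed in every library, and 33 reached 1 FPKM (fragments per kilobase of transcript, scaled to library size) in at least 1 library, the level required for a gene to be called measured. Aldoc and Car9 stayed below it. Egln3 passed it only through the wild-type library.

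The study asked what the lack of either of 2 surface receptors does to these liver pericytes. TLR4 recognises bacterial lipopolysaccharide, and CD44 binds hyaluronan. The groups were cells labelled TLR4-/-, cells labelled CD44-/- and wild-type cells, with 1 library each, all from male C57BL/6 mice 24 weeks old. Every culture had been depleted of macrophages with CD11b beads, grown for 3 days with 10% serum and then held in serum-free medium for 24 h, as the labels' protocols state. The sources used here give neither the knockout alleles nor whether animals were pooled, and they are silent on culture oxygen, glucose and cell density. Both knockout-labelled libraries are compared with 1 wild-type library, which the comparisons therefore share.

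Glycolysis splits glucose to pyruvate in the cytosol, and lactate dehydrogenase turns pyruvate to lactate, which leaves the cell through proton-coupled transporters. HIF is a dimer of an oxygen-labile alpha subunit and ARNT. In normal oxygen, prolyl hydroxylases mark the alpha subunit for destruction through VHL, and in low oxygen it persists, binds the core letters ACGTG or GCGTG in DNA and raises most glycolytic genes with genes of mitophagy, blood vessel growth and collagen hydroxylation. Stellate cells are known to take up a glycolytic programme when they turn into matrix-producing myofibroblasts.

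With 1 library per genotype no difference has a replicate check, and no test was run. A difference is described by log2 of the ratio of FPKM + 1, which understates the change of low genes, and is called 2-fold at 1 or more or at -1 or less. The ratio given for a single gene leaves the 1 out. In parentheses beside it stands its 95% interval, an exact conditional binomial one on rounded read estimates, which covers counting error only. Libraries held 21460725 to 24078669 estimated reads. All 13 stellate cell markers were at 1 FPKM or more in every library, among them Lrat, the retinoid esterase, at 150 FPKM in the library labelled TLR4-/-, 267 FPKM in CD44-/- and 215 FPKM in wild type. Their levels differed. In the library labelled TLR4-/-, 11 of 13 had a log2 ratio to wild type below 0 (45.8% of all genes), with a median of -0.51. In CD44-/- 4 of 13 did (45.1% of all genes), with a median of 0.10. In the same order of libraries, Acta2 stood at 81.5, 148 and 235 FPKM and Col1a1 at 358, 205 and 588 FPKM. Dcn went the other way, at 2951, 4337 and 2614 FPKM. Col3a1, at 246, 696 and 384 FPKM, was above wild type in CD44-/- and below it in the library labelled TLR4-/-. Colec11, at 14.1, 100 and 94.4 FPKM, had the lowest log2 ratio to wild type of these markers in the library labelled TLR4-/-. The part of these differences in the results below was not tested.

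The targeted genes were unequal checks of the labels. Cd44 stood at 2.57 FPKM in CD44-/- against 17.2 FPKM in wild type, a ratio of 0.149 (0.130 to 0.170). Tlr4 stood at 10.9 FPKM in the library labelled TLR4-/- against 15.8 FPKM in wild type, a ratio of 0.693 (0.639 to 0.752), so this gene-level value goes against a simple loss of the transcript. Reads outside a deleted part would still be counted. The library is therefore called the library labelled TLR4-/- throughout.

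Other cell types also differed between the cultures. The 16 macrophage markers summed to 21.9 FPKM in the library labelled TLR4-/-, 517 FPKM in CD44-/- and 54.3 FPKM in wild type, with 3, 1 and 2 of them at 0 in that order. In CD44-/-, 11 of the 12 measured ones were at least 2-fold above wild type (2.24% of all genes), but 6 of the 12 were under 1 FPKM in wild type and were counted as measured only through the CD44-/- library. Cd68, the lysosomal marker, stood at 7.92, 57.5 and 11.7 FPKM. The 13 endothelial markers summed to 25.7, 38.3 and 82.3 FPKM in the same order, of which Egfl7 alone gave 21.4, 23.9 and 31.4 FPKM. No endothelial marker was at 0, but 11, 8 and 3 of the 13 were under 1 FPKM. Set against wild type, the 2-fold rule called 8 of 10 measured ones lower for the TLR4-/- label (2.69% of all genes). For CD44-/- it called 6 of 10 lower (1.97%), with 0 higher in either comparison. Most of the measured ones were under 1 FPKM in the library labelled TLR4-/-, and Kdr, Stab2, Clec4g, Tek and Erg also in CD44-/-. In those comparisons they counted as measured only through wild type, so the filter favoured calls of lower. Cdh5, the junctional cadherin, stood at 0.91, 2.58 and 12.3 FPKM. Hepatocyte genes were nearly absent apart from Ass1, which other cells also use: Alb stood at 1.22, 0.16 and 9.14 FPKM. The part of these cells in the results below was not tested. In bulk RNA, fewer cells of a type and less RNA per cell cannot be told apart.

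The DNA just before the start of each gene is shown for members on which the results below turn. It is the stretch of 250 bases before the most upstream start in a table of RefSeq promoters (GRCm38.p6, the build mm10 also names), written 5′ to 3′ on the gene's strand. Capitals mark the HIF core, searched as ACGTG and GCGTG and their reverse complements CACGT and CACGC. For 22 of 34 members with a window, the window adjoins the beginning of the gene's RefSeq record, and for 12 the record begins further upstream. Among the genes shown, these include Ldha, whose record begins 3530 bases before the end of its window, and Hif1a, at 6543 bases, so distances are from the table's start and not from the beginning of the record. The window is chr7:110627407-110627656 on the plus strand for Adm, chr17:46032378-46032627 on the minus strand for Vegfa, and chrX:106186850-106187099 on the plus strand for Pgk1. It is chr7:46845554-46845803 on the plus strand for Ldha and chr3:104638414-104638663 on the plus strand for Slc16a1. It is chr14:45318573-45318822 on the minus strand for Ero1l and chr12:73907617-73907866 on the plus strand for Hif1a.
Adm: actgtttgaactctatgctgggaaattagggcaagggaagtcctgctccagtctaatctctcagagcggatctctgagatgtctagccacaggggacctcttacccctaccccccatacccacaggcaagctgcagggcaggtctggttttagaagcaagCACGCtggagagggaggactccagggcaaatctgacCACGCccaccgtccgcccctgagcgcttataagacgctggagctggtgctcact
Vegfa: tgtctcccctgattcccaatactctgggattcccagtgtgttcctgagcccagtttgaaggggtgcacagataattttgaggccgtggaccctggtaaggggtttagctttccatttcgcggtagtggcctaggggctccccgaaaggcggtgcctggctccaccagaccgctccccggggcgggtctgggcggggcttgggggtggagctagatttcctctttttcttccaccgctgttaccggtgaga
Pgk1: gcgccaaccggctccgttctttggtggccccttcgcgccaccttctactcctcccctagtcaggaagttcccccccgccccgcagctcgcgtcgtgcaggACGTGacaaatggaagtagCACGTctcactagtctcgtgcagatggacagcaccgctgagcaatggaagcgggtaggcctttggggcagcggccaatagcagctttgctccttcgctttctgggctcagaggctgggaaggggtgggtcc
Ldha: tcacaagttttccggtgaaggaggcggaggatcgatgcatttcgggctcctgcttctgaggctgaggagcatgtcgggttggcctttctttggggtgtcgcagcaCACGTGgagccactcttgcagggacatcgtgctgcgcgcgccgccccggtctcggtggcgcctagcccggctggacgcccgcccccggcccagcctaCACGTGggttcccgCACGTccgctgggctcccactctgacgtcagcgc
Slc16a1: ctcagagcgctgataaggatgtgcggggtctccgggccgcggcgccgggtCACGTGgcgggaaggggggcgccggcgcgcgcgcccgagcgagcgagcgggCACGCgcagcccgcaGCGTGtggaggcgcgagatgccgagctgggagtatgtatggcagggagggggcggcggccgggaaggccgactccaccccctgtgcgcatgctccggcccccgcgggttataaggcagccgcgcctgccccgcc
Ero1l: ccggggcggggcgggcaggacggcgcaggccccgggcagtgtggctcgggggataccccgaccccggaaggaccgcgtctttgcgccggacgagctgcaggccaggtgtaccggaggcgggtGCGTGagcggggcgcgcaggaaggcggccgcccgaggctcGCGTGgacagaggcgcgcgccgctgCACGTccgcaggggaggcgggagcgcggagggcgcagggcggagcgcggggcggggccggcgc
Hif1a: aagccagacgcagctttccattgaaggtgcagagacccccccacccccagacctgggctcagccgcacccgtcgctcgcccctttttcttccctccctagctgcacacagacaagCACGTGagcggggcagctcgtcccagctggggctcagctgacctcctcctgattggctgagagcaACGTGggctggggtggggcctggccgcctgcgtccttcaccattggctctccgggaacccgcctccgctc

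Adm, the measured member with the lowest log2 ratio to wild type in the library labelled TLR4-/-, has CACGC 90 and 54 bases before its start. Vegfa, the one with the lowest in CD44-/-, has neither core in this window. Pgk1 holds ACGTG 150 bases and CACGT 131 bases before its start. Ldha holds the palindrome CACGTG in 2 places, 145 and 48 bases before the start, and CACGT at 34. That palindrome is also the E-box bound by other factors, and it contains ACGTG on both strands. Slc16a1 has it at 200 bases and Hif1a at 135 bases, each with further cores nearer the start. Ero1l has GCGTG at 128 and 88 bases and CACGT at 63.

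Of 34 members with a window in the RefSeq table (Ndrg1 had none), 18 held ACGTG on either strand, or 52.9%. The share was 22% of 9750 genes with a window that reached 1 FPKM, and 16.5% of all 27025 genes with a window. Among the other HIF targets it was 8 of 11 (72.7%), and among the enzymes 5 of 16 (31.2%). GCGTG was found in 8 of 11 other targets (72.7%) and in 6 of 16 enzymes (37.5%), beside 45.9% of genes that reached 1 FPKM. CACGTG was found in 5 of 34 members (14.7%), beside 8.47% of genes that reached 1 FPKM. These genes were listed as glycolysis genes, as known HIF targets or as the HIF subunit, so the shares are a description of the windows, and a match is not a binding site.

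The enzymes of the pathway were among the most abundant transcripts of these cells. Gapdh, which oxidises glyceraldehyde phosphate, was the highest member in every library, at 1957 FPKM in the library labelled TLR4-/-, 1344 FPKM in CD44-/- and 1944 FPKM in wild type. It ranked 9, 15 and 9 among all genes of its library in that order. In each library the same 9 of 16 enzymes exceeded 100 FPKM: Gpi1, Aldoa, Tpi1, Gapdh, Pgk1, Pgam1, Eno1, Pkm and Ldha, 1 for each step of the pathway other than the hexokinase and phosphofructokinase steps. Those 2 steps were carried at lower levels by Hk1 and by Pfkl, Pfkm and Pfkp. The summed level of the 16 enzymes was 5504 FPKM in the library labelled TLR4-/-, 4460 FPKM in CD44-/- and 6040 FPKM in wild type, or 0.911 and 0.738 of the wild-type sum. Gapdh made up 30.1% to 35.6% of those sums, and without it the ratios to wild type were 0.866 and 0.761.

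**Figure D1:**
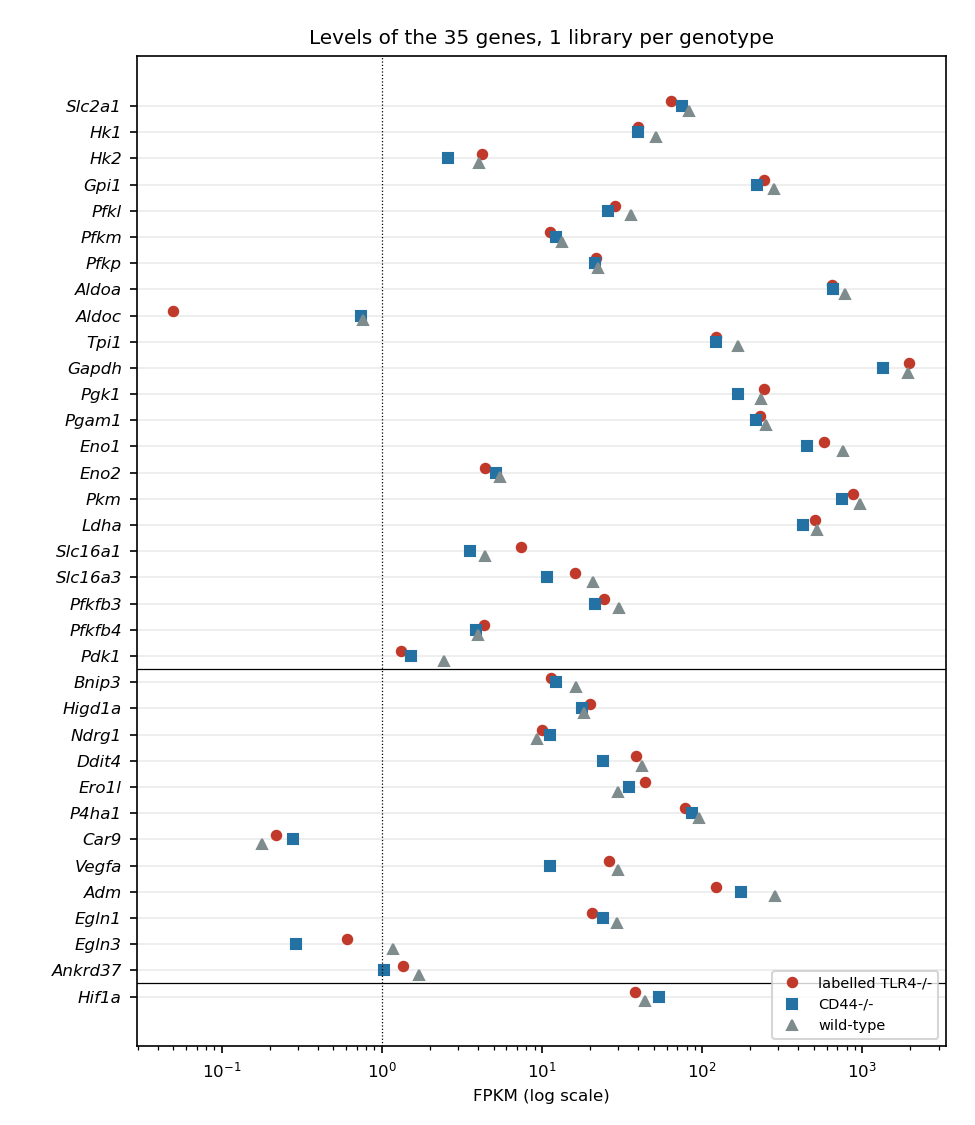
Level of each of the 35 genes in FPKM (log scale, horizontal) in the library labelled TLR4-/-, the CD44-/- library and the wild-type library, 1 point per library. The upper block holds the glycolysis genes with transporters and regulators, the middle block the other HIF targets, and the lowest row Hif1a. The dotted line marks 1 FPKM. Gapdh is the highest gene in every library, and Aldoc and Car9 stay below 1 FPKM.

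No enzyme was 2-fold higher or lower than wild type in either knockout-labelled library, yet most were lower in each. Over all measured genes, 1.04% were 2-fold higher and 2.69% lower in the library labelled TLR4-/-, and 2.24% and 1.97% in CD44-/-. Of 15 measured enzymes, 12 had a log2 ratio below 0 in the library labelled TLR4-/-, where 45.8% of 12098 measured genes did and 53.9% lay above 0, and the median over the enzymes was -0.21 against 0.03 over all genes. In CD44-/- all 15 were below 0, where 45.1% of 12247 genes were and 54.7% lay above 0, with a median of -0.36 against 0.03. Counting intervals lay wholly below 1 for 11 of 15 enzymes in the library labelled TLR4-/- (29.1% of all genes) and for 12 of 15 in CD44-/- (25.2% of all genes). They lay above 1 for 1 enzyme, Pgk1 in the library labelled TLR4-/- (34.4% of all genes), and for none in CD44-/- (31.6%). Enzymes are read more deeply than most genes, with a median of 10357 reads in the higher library against 829 over all genes in the comparison of the library labelled TLR4-/- with wild type, so their intervals are narrower. Among genes of at least 100 FPKM, a filter chosen after seeing the data, 7 of 9 enzymes were below 0 in the library labelled TLR4-/- beside 48.8% of 816 genes, and 9 of 9 in CD44-/- beside 56.7% of 787 genes.

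The main genes of glucose entry and trapping, Slc2a1 and Hk1, were lower in each knockout-labelled library. Slc2a1, the glucose transporter of most cultured cells, stood at 63.8 FPKM in the library labelled TLR4-/-, 75.1 FPKM in CD44-/- and 83.2 FPKM in wild type. Its ratio to wild type was 0.767 (0.735 to 0.799) in the library labelled TLR4-/- and 0.902 (0.866 to 0.940) in CD44-/-. Hexokinase traps glucose in the cell as a phosphate. Hk1, the constitutive form, stood at 39.7, 40.0 and 51.7 FPKM in the library labelled TLR4-/-, CD44-/- and wild type, with ratios of 0.768 (0.737 to 0.801) and 0.775 (0.742 to 0.809). Hk2, the inducible form, was far less abundant, at 4.25, 2.59 and 4.07 FPKM. It was lower in CD44-/-, at a ratio of 0.636 (0.552 to 0.733), while in the library labelled TLR4-/- the interval held 1 (ratio 1.04, 0.927 to 1.18). Gpi1, the isomerase of the next step, stood at 242, 220 and 281 FPKM, with ratios of 0.864 (0.846 to 0.882) and 0.785 (0.768 to 0.803).

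Phosphofructokinase, the committed step, was made of 3 subunit genes of comparable level. Pfkl, the liver-type subunit, was the highest at 28.6 FPKM in the library labelled TLR4-/-, 26.0 FPKM in CD44-/- and 35.8 FPKM in wild type. It was the subunit furthest below wild type, with ratios of 0.798 (0.758 to 0.841) and 0.725 (0.686 to 0.766). Pfkm, the muscle-type subunit, stood at 11.3, 12.2 and 13.4 FPKM and Pfkp, the platelet-type subunit, at 21.9, 21.5 and 22.4 FPKM. Pfkp was within counting error of wild type in each, at 0.979 (0.921 to 1.04) and 0.961 (0.903 to 1.02). Pfkl accordingly made up 46.3% of the summed subunit level in the library labelled TLR4-/-, 43.5% in CD44-/- and 50.01% in wild type.

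The steps from aldolase to triose phosphate isomerase were lower by like amounts in the 2 knockout-labelled libraries. Aldoa, which splits the hexose bisphosphate, stood at 645 FPKM in the library labelled TLR4-/-, 654 FPKM in CD44-/- and 786 FPKM in wild type, with ratios of 0.821 (0.807 to 0.835) and 0.832 (0.818 to 0.847). Tpi1, the isomerase of its products, stood at 122, 121 and 168 FPKM, with ratios of 0.725 (0.698 to 0.753) and 0.721 (0.693 to 0.750). No other measured enzyme had a lower ratio to wild type in the library labelled TLR4-/-. Aldoc, the brain-type aldolase, had 2 reads in the library labelled TLR4-/- against 27 in CD44-/- and 31 in wild type. Its ratio to wild type in the library labelled TLR4-/- was 0.0657 (0.0076 to 0.258), at a level below 1 FPKM throughout.

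Gapdh and Pgk1 separated the knockout-labelled libraries. Pgk1, which makes the first ATP of the pathway, stood at 242 FPKM in the library labelled TLR4-/-, 168 FPKM in CD44-/- and 232 FPKM in wild type. Its ratio to wild type was 1.04 (1.02 to 1.07) in the library labelled TLR4-/- and 0.726 (0.704 to 0.749) in CD44-/-, so the intervals lay on opposite sides of 1. Gapdh was level with wild type in the library labelled TLR4-/- (1.01, 0.995 to 1.02) and lower in CD44-/- (0.691, 0.682 to 0.700). Set directly against CD44-/-, the library labelled TLR4-/- was 1.46-fold higher for Gapdh (1.44 to 1.48) and 1.44-fold higher for Pgk1 (1.39 to 1.48). Gapdh is often used as a loading control, and here its level differed by that factor between libraries scaled to their totals.

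From Pgam1 to Ldha, the main enzyme of each step was lowest in CD44-/- and highest in wild type. Pgam1, the mutase, stood at 230 FPKM in the library labelled TLR4-/-, 218 FPKM in CD44-/- and 250.4 FPKM in wild type. Eno1, the enolase of most tissues, stood at 574, 453 and 756 FPKM, and with a ratio of 0.599 (0.588 to 0.610) it was the enzyme furthest below wild type in CD44-/- on either scale. In the library labelled TLR4-/- the Eno1 ratio was 0.759 (0.747 to 0.772). Pkm, the pyruvate kinase of proliferating and muscle cells, stood at 876, 744 and 966 FPKM, with ratios of 0.907 (0.896 to 0.918) and 0.770 (0.760 to 0.780). Ldha, which makes lactate, stood at 504, 429 and 522 FPKM, with ratios of 0.966 (0.947 to 0.985) and 0.822 (0.804 to 0.839). The neuronal enolase Eno2 was low, at 4.43, 5.19 and 5.46 FPKM, and its interval lay below 1 in the library labelled TLR4-/- (0.691 to 0.953) and held 1 in CD44-/- (0.812 to 1.11).

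The 2 lactate transporter genes diverged in the library labelled TLR4-/-, while both were lower in CD44-/-. Slc16a3, the export form induced by HIF, stood at 16.1 FPKM in the library labelled TLR4-/-, 10.8 FPKM in CD44-/- and 20.9 FPKM in wild type. With a ratio of 0.515 (0.465 to 0.569), its CD44-/- value lay just short of 2-fold, at a log2 ratio of -0.90. Slc16a1, the broadly expressed form, stood at 7.42, 3.58 and 4.41 FPKM. It was the member furthest above wild type in the library labelled TLR4-/-, at 1.68-fold (1.499 to 1.89), and lower in CD44-/-, at 0.812 (0.704 to 0.935). Slc16a1 supplied 31.2% of the summed level of Slc16a1, Slc16a3 and Slc16a7 in the library labelled TLR4-/-, 24.4% in CD44-/- and 17.3% in wild type.

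**Figure D2:**
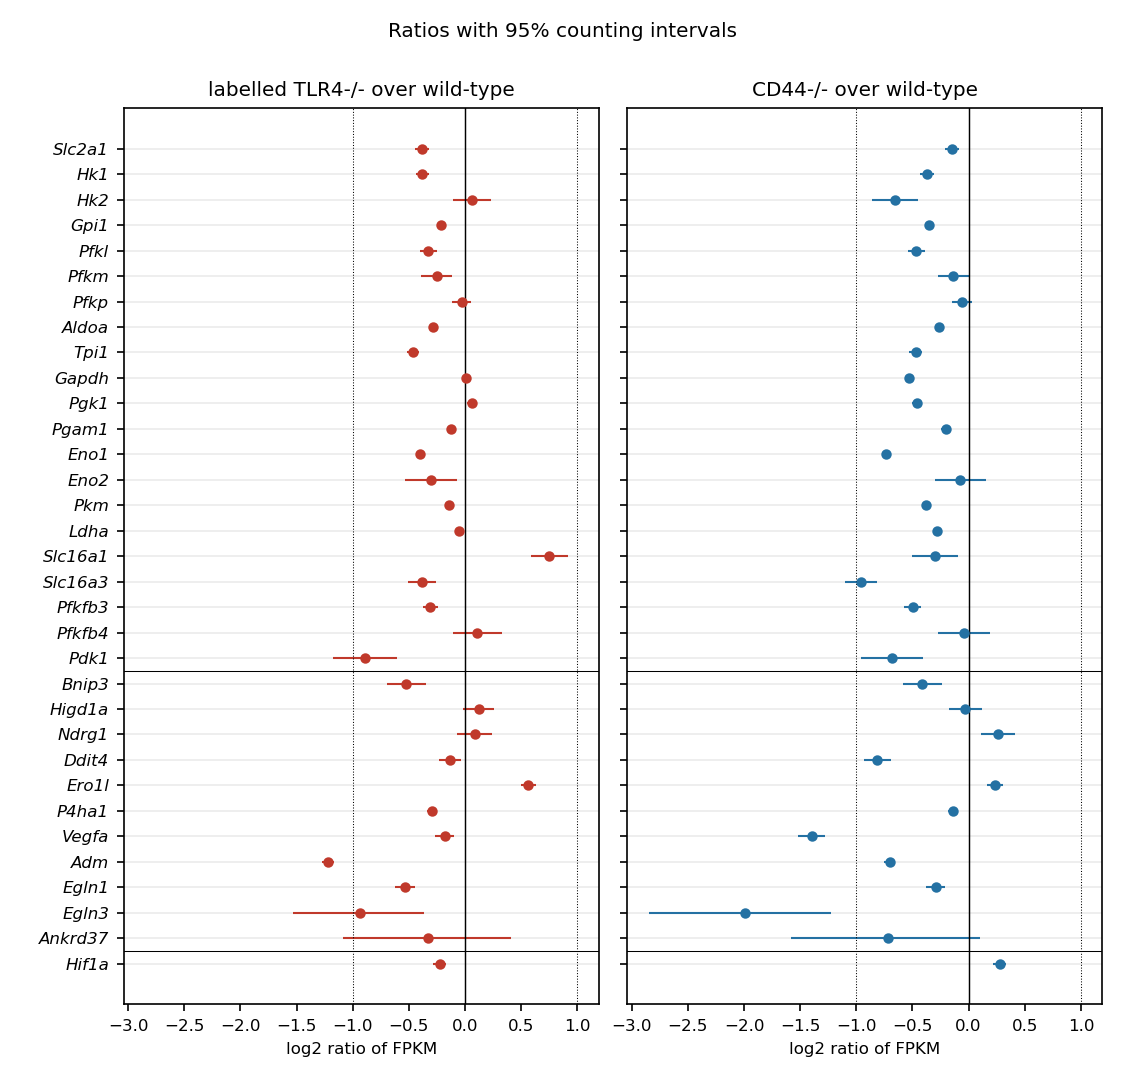
Log2 ratio of FPKM to wild type (horizontal) for the 33 measured genes, with the library labelled TLR4-/- at left and CD44-/- at right, with bars for 95% counting intervals and dotted lines at 2-fold. Most points lie left of 0 in each panel. Adm at left and Vegfa and Egln3 at right lie past the 2-fold line with their whole interval, while Slc16a1 and Ero1l lie right of 0 at left.

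The regulators of flux were mostly lower too. Pfkfb3, which makes the fructose bisphosphate that activates phosphofructokinase, stood at 24.6 FPKM in the library labelled TLR4-/-, 21.6 FPKM in CD44-/- and 30.4 FPKM in wild type, with ratios of 0.808 (0.769 to 0.848) and 0.709 (0.673 to 0.747). Pfkfb4, a second gene of that family, stood at 4.33, 3.90 and 4.01 FPKM, and both intervals held 1. Pdk1, the kinase that shuts pyruvate dehydrogenase and so turns pyruvate from the mitochondrion, was low at 1.32, 1.52 and 2.44 FPKM, with ratios of 0.541 (0.443 to 0.656) and 0.623 (0.515 to 0.756). It was a minor member of its family, at 6.71%, 6.39% and 7.24% of the summed kinase level.

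Hypoxia-inducible factor targets outside glycolysis had medians close to those of the enzymes but were spread more widely. Over 11 measured targets the median log2 ratio was -0.20 in the library labelled TLR4-/- (enzymes -0.21) and -0.39 in CD44-/- (enzymes -0.36). The difference of medians, enzymes minus targets, was -0.01 and 0.03, and its sign turned under some other settings, with values from -0.05 to 0.09 and from -0.07 to 0.04. The standard deviation over genes was 0.45 for the targets against 0.17 for the enzymes in the library labelled TLR4-/-, and 0.47 against 0.19 in CD44-/-. Over all measured genes it was 0.45 and 0.47. The targets had fewer reads, with a median of 1710 in the higher library against 10357 for the enzymes in the comparison of the library labelled TLR4-/- with wild type, and the part of depth in the spread was not tested. All members of 1 library share its depth and cells, so the spread is a description.

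**Figure D3:**
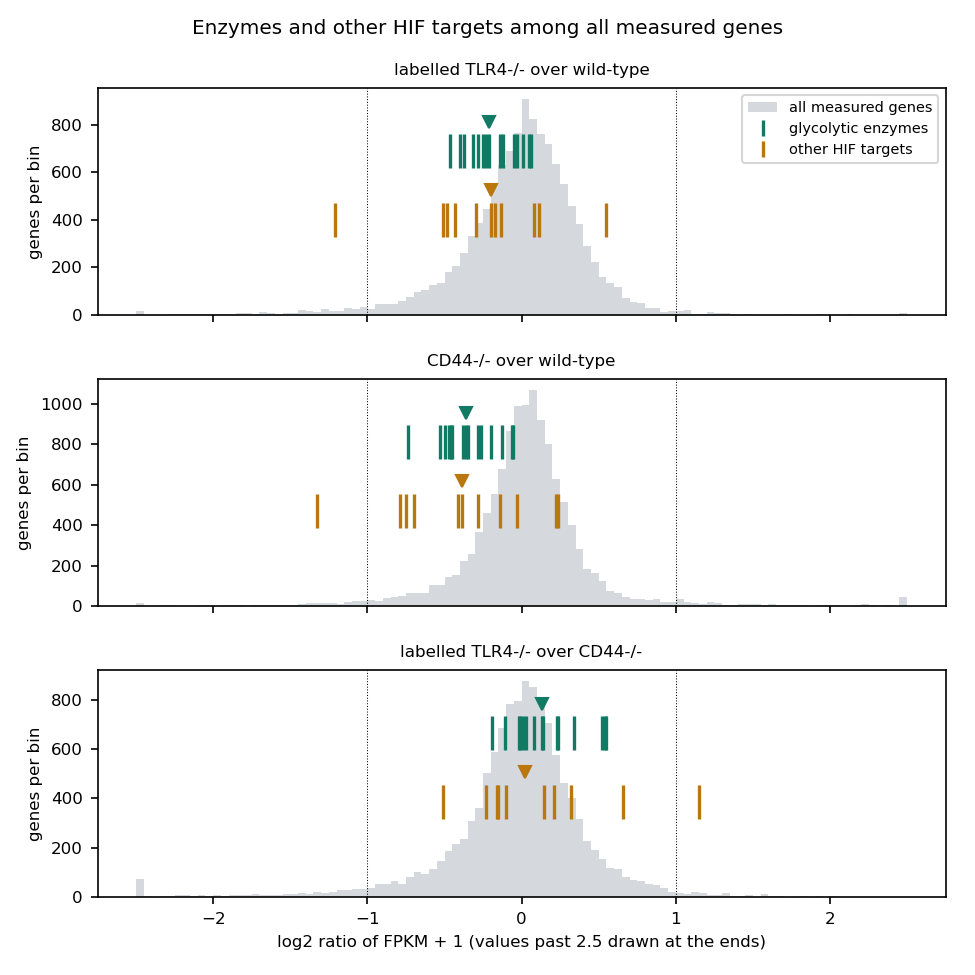
Number of measured genes per bin of log2 ratio of FPKM + 1 (grey), with a tick for each measured glycolytic enzyme (green) and each other HIF target (orange) and a triangle at each group's median, for the library labelled TLR4-/- over wild type (top), CD44-/- over wild type (middle) and the library labelled TLR4-/- over CD44-/- (bottom). Dotted lines mark 2-fold. Enzyme ticks lie in a narrow band, mostly left of 0, in the upper panels, and target ticks run past -1 in each of those.

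Under the main settings exactly 1 member was called in each comparison, Adm or Vegfa, which is near the share over all genes. In the library labelled TLR4-/-, 0 of 33 measured members were 2-fold higher (1.04% of all genes) and 1 was 2-fold lower (2.69% of all genes). That gene was Adm, which encodes adrenomedullin, a vasodilator peptide. It stood at 122 FPKM in the library labelled TLR4-/-, 175 FPKM in CD44-/- and 284 FPKM in wild type, so it was the highest of the targets in every library and lower in each knockout-labelled one. Its ratio to wild type was 0.430 (0.415 to 0.447) in the library labelled TLR4-/- and 0.615 (0.594 to 0.636) in CD44-/-.

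In CD44-/-, 0 of 33 members were 2-fold higher (2.24% of all genes) and 1 was 2-fold lower (1.97% of all genes). That gene was Vegfa, the main growth factor of blood vessels, at 26.3 FPKM in the library labelled TLR4-/-, 11.3 FPKM in CD44-/- and 29.8 FPKM in wild type. Its ratio to wild type was 0.379 (0.350 to 0.411) in CD44-/- and 0.883 (0.832 to 0.936) in the library labelled TLR4-/-. Set directly against CD44-/-, the library labelled TLR4-/- had 1 of 32 measured members 2-fold higher (1.32% of all genes), again Vegfa at 2.33-fold (2.14 to 2.53), and 0 lower (3.44%). These shares of called members are near the background in each comparison. Counts of 2 replaced 1 in CD44-/- with a pseudocount of 0.1, with TPM, with TMM-scaled CPM and with the rule on whole counting intervals, when Egln3 joined Vegfa, and in the direct comparison with the pseudocount of 0.1 and TMM-scaled CPM, when Slc16a1 did.

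Of the hydroxylase genes, Egln1 was lower in each knockout-labelled library and Egln2 was within counting error of wild type. Hif1a diverged between the knockout-labelled libraries. Egln1, the main prolyl hydroxylase of HIF and itself a target, stood at 20.4 FPKM in the library labelled TLR4-/-, 24.1 FPKM in CD44-/- and 29.5 FPKM in wild type, with ratios of 0.691 (0.650 to 0.735) and 0.816 (0.768 to 0.867). Egln2, the most abundant of these genes in every library, stood at 34.3, 36.4 and 35.3 FPKM, and both intervals held 1. Egln3, the most strongly induced hydroxylase in many cells, had only 39, 17 and 76 reads, at 0.61, 0.29 and 1.17 FPKM. It was counted as measured only through wild type, where it was highest, so its lower values elsewhere carry little weight. Its ratios were 0.522 (0.346 to 0.778) and 0.251 (0.139 to 0.429). Hif1a, the oxygen-labile subunit, which is controlled mainly at the protein, stood at 37.9, 53.6 and 44.3 FPKM. Its ratio to wild type was 0.855 (0.821 to 0.891) in the library labelled TLR4-/- and 1.21 (1.17 to 1.26) in CD44-/-, so the intervals lay on opposite sides of 1. Ankrd37, a small target often used as a HIF reporter, was near 1 FPKM in each library, with 29, 20 and 37 reads, and its intervals held 1.

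Targets that act in the endoplasmic reticulum and in collagen hydroxylation went in different directions. Ero1l, the oxidase that drives disulfide bond formation, stood at 44.0 FPKM in the library labelled TLR4-/-, 34.95 FPKM in CD44-/- and 29.7 FPKM in wild type. It was higher in each, at 1.48-fold (1.41 to 1.55) and 1.18-fold (1.12 to 1.23). P4ha1, the prolyl hydroxylase subunit that stabilises collagen, stood at 77.8, 86.6 and 95.6 FPKM, with ratios of 0.814 (0.789 to 0.839) and 0.907 (0.879 to 0.934). Car9, a carbonic anhydrase held to be tightly HIF-dependent, had 10, 12 and 8 reads after rounding, at 0.22, 0.28 and 0.18 FPKM, and its intervals held 1.

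Targets in mitophagy and stress differed in their order. Bnip3, the mitophagy receptor, stood at 11.4 FPKM in the library labelled TLR4-/-, 12.3 FPKM in CD44-/- and 16.4 FPKM in wild type, with ratios of 0.696 (0.618 to 0.784) and 0.751 (0.666 to 0.846). Ddit4, an inhibitor of mTOR complex signalling that the stress factor ATF4 also drives, stood at 38.6, 24.1 and 42.4 FPKM. It was lower mainly in CD44-/-, at 0.569 (0.524 to 0.618), against 0.911 (0.850 to 0.977) in the library labelled TLR4-/-. Ndrg1, a stress-induced differentiation gene, stood at 9.98, 11.3 and 9.39 FPKM and was higher in CD44-/- at 1.20-fold (1.08 to 1.34). Higd1a, a mitochondrial protein of hypoxia survival, stood at 19.9, 17.9 and 18.3 FPKM, and both intervals held 1.

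The isoform make-up of several steps differed between the libraries. Hk3, the hexokinase of myeloid cells, stood at 0.39 FPKM in the library labelled TLR4-/-, 10.6 FPKM in CD44-/- and 1.32 FPKM in wild type, and made up 0.880%, 19.9% and 2.31% of the summed hexokinase level. The macrophage markers given above were also highest in CD44-/-, and their part in the Hk3 level was not tested. Pdk4, the pyruvate dehydrogenase kinase of fasting and fat use, stood at 4.99, 7.05 and 15.5 FPKM, and its share of the kinase family was 25.4%, 29.7% and 46.1%. Of the other isoforms, Adpgk, an ADP-dependent glucokinase, stood at 28.1, 14.9 and 15.4 FPKM, and Ldhb, the lactate dehydrogenase form of oxidative tissues, at 5.49, 7.76 and 9.43 FPKM. Ldha nevertheless held 98.2% to 98.9% of the lactate dehydrogenase level in the 3 libraries, and Eno1 97.1% to 98.04% of the enolase level. The measured isoforms outside the list numbered 12 in each comparison with wild type, with 0 higher and 1 lower by 2-fold in the library labelled TLR4-/- (Pdk4), beside 1.04% and 2.69% of all genes. In CD44-/- 1 was higher (Hk3) and 1 lower (Pdk4), beside 2.24% and 1.97% of all genes.

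**Figure D4:**
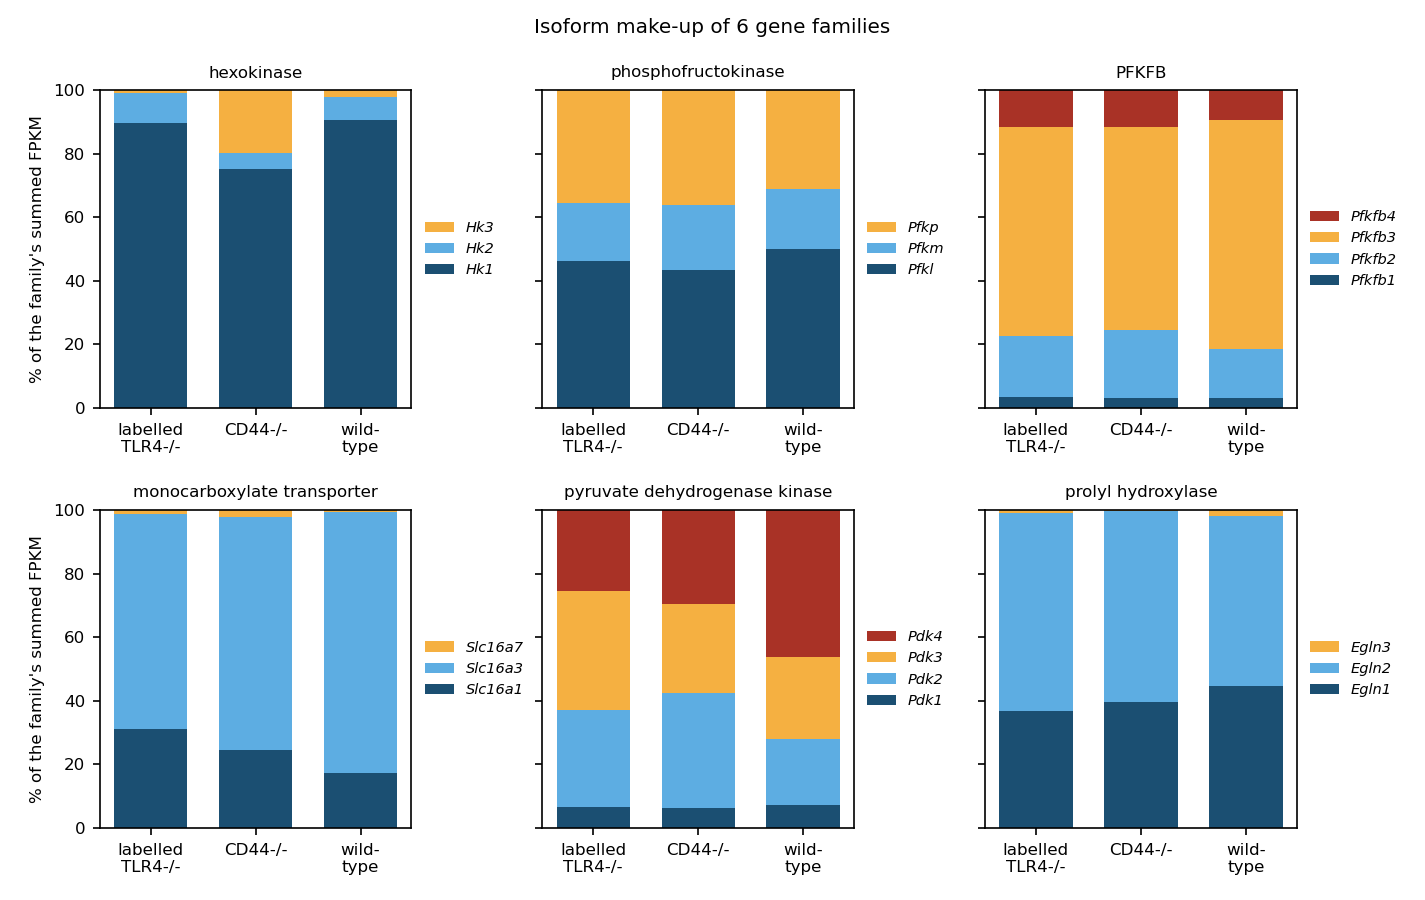
Share of each isoform in the summed FPKM of its family (percent, vertical) in the library labelled TLR4-/-, the CD44-/- library and the wild-type library, for 6 families. Hk3 takes 19.9% of the hexokinase level in CD44-/- against 2.31% in wild type, and Pdk4 takes a smaller share of the kinase level in both knockout-labelled libraries (25.4% and 29.7%) than in wild type (46.1%).

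Neighbouring pathways had medians near 0 or above it. The pentose phosphate pathway branches from glucose phosphate to make NADPH and ribose. Of its 8 measured genes, none was 2-fold different, and the median log2 ratio was 0.25 in the library labelled TLR4-/- while CD44-/- had 0.08. Pgd, its second dehydrogenase, stood at 349, 284 and 255 FPKM in the library labelled TLR4-/-, CD44-/- and wild type. Pyruvate entry into mitochondria had medians of 0.07 and -0.04 over 10 genes, with none at 2-fold, and the citric acid cycle 0.11 and 0.00 over 17 genes, with none at 2-fold. Pcx, which carboxylates pyruvate, was the furthest from wild type of these, at 15.7, 18.8 and 31.1 FPKM. As background, 1.04% of all measured genes were 2-fold higher and 2.69% lower in the library labelled TLR4-/-. In CD44-/- the shares were 2.24% and 1.97%, so 0 genes at 2-fold in lists this short is near the background.

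The wider HIF system was described from lists chosen with earlier results known. Its machinery had medians of 0.04 over 14 genes and 0.03 over 13 genes, with 0 at 2-fold in either library. Beside this, 1.04% of all genes were higher and 2.69% lower in the library labelled TLR4-/-, and 2.24% and 1.97% in CD44-/-. Epas1, the HIF-2 alpha subunit, stood at 76.9 FPKM in the library labelled TLR4-/-, 140 FPKM in CD44-/- and 135 FPKM in wild type, the lowest log2 ratio of that list in the library labelled TLR4-/- (-0.81). It was thus more abundant than Hif1a in every library. Of 37 further targets measured in the library labelled TLR4-/-, 0 were 2-fold higher (1.04% of all genes) and 5 lower (2.69%), with a median of -0.13. Of 35 in CD44-/-, 1 was higher (2.24% of all genes) and 4 lower (1.97%), with a median of -0.18.

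Angptl4, a lipase inhibitor among those further targets that fatty acids also induce, stood at 19.8 FPKM in the library labelled TLR4-/-, 17.2 FPKM in CD44-/- and 67.1 FPKM in wild type. Igfbp3, a binding protein of insulin-like growth factors, was low in the library labelled TLR4-/- alone, at 61.4, 224 and 239 FPKM. Selenbp1 stood at 6.53, 47.7 and 22.7 FPKM.

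Some amino acid stress genes, which share ATF4 with Ddit4, went another way in the library labelled TLR4-/-. The list was chosen with earlier results of these data known, so its counts are a description. Of 15 measured, 7 were at least 2-fold higher there (1.04% of all genes), 1 lower (2.69%) and 7 between, with a median of 0.38. In CD44-/- 1 was higher (2.24%) and 1 lower (1.97%), with a median of -0.04. Aldh1l2, a mitochondrial folate enzyme, stood at 23.6, 13.6 and 4.62 FPKM in the library labelled TLR4-/-, CD44-/- and wild type. It was also the 1 gene called higher in CD44-/-, so its rise was not particular to the TLR4-/- label.

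Compared directly, the library labelled TLR4-/- exceeded CD44-/- for most enzymes and not for most other targets. Of 15 enzymes, 11 had a log2 ratio above 0 (51.6% of 12168 genes), with a median of 0.13 against 0.01 over all genes. Their intervals lay above 1 for 9 (31.6% of all genes) and below 1 for 0 (29.9%). Of 10 measured targets, 5 lay above 0 and 5 below, with a median of 0.02, from Vegfa at 1.15 to Adm at -0.51. Besides Gapdh and Pgk1, Hk2 was 1.64-fold higher in the library labelled TLR4-/- (1.43 to 1.89) and Eno1 1.27-fold higher (1.24 to 1.29). Slc16a1 was 2.07-fold higher (1.82 to 2.36), at a log2 ratio of 0.88 with the added 1. Slc2a1, at 0.850 (0.813 to 0.888), went the other way.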

How the data were processed

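RNA was sequenced from cultured hepatic stellate cells, with 1 library per genotype and genotypes taken from the sample labels. Triplicates and Illumina instruments are mentioned in the series text, but BGISEQ-500 in the extraction protocol. The authors deposited per gene an FPKM value and RSEM's expected count, which may hold a fraction of a read, with Entrez numbers and RefSeq transcripts per the file headers. RSEM and mm10 are named per the submitters' processing notes. The deposited tables also give a transcript length in bases. Genes that a library did not list were taken as 0. Reads that suit several features are split among them by RSEM, and no source used here states how strand was handled. For 10 of the 35 members (Gpi1, Pfkl, Gapdh, Eno2, Ldha, Pdk1, Pfkfb3, Car9, Vegfa and Adm) the count was not whole within 0.005 in a library, so part of their reads was shared out and their levels carry that uncertainty.

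Members, lists and rules were chosen with earlier results of these data known. Symbols and coordinates are those of RefSeq on GRCm38.p6. The 2-fold rule was log2 of the ratio of FPKM + 1 at 1 or -1, for genes that reached FPKM 1 in 1 or both of the libraries compared. All 35 members are named. From each further list, the 4 genes with the largest log2 ratio in either comparison with wild type and at least 5 FPKM could be named, and every isoform with at least 1 FPKM. The values of 1 gene that this rule names are not reported here. Intervals are 95% Clopper-Pearson bounds on rounded expected counts. For genes under 1 FPKM in a library, ratios were taken from counts over library totals. Depth was 23659074, 21460725 and 24078669 estimated reads in the library labelled TLR4-/-, CD44-/- and wild type. Alternatives were a pseudocount of 0.1, no filter, filters at FPKM 5 and (added after seeing the data) 100, median-of-ratios scaling, TPM, TMM-scaled CPM (edgeR 4.0.16), whole intervals past 2-fold, and a wider enzyme group. Python 3.11.15, pandas 2.3.3 and scipy 1.17.1 were used, and the steps were tested on simulated data.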

Additional observations from a re-analysis of the deposited data

Results flagged for a closer look

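Pgk1, Slc16a1 and Hif1a had counting intervals on opposite sides of 1 in the 2 knockout-labelled libraries when each was set against wild type. With 1 library a genotype this difference was not tested, and the comparisons share the wild-type library. Intervals that leave out 1 were common: over all measured genes they lay above 1 for 34.4% and below for 29.1% in the library labelled TLR4-/-. In CD44-/- the shares were 31.6% and 25.2%. The share of all genes with intervals on opposite sides of 1 was not counted. Set directly over CD44-/-, the library labelled TLR4-/- had log2 ratios of 0.52 for Pgk1, 0.88 for Slc16a1 and -0.49 for Hif1a.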

How the results depend on the processing

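No paired analysis was possible because each genotype has 1 library, and leaving out a library would leave no comparison. For the library labelled TLR4-/- over wild type, the enzyme median was -0.22 with no filter and at FPKM 5, -0.24 with median-of-ratios scaling and with TMM-scaled CPM, -0.23 with transporters and regulators added, and -0.14 at FPKM 100. The target median was -0.30 with a pseudocount of 0.1 and -0.26 with TPM, and the enzyme minus target difference was 0.086 and 0.046 there, turning its sign, and -0.048 at FPKM 5. For CD44-/- over wild type, the enzyme median was -0.39 with median-of-ratios scaling and with TMM-scaled CPM and -0.38 at FPKM 100. The target median was -0.33 with no filter and -0.28 at FPKM 5, with differences of -0.019 and -0.071, turning the sign. The count of 2-fold lower members was 2 with a pseudocount of 0.1, TPM, TMM-scaled CPM and whole intervals. For the library labelled TLR4-/- over CD44-/-, the enzyme median was 0.11 with no filter and at FPKM 5 and 0.23 at FPKM 100. The target median was -0.10 at FPKM 5, turning its sign, and the difference was 0.07 with no filter and 0.21 at FPKM 5. The count of 2-fold higher members was 2 with a pseudocount of 0.1 and with TMM-scaled CPM. Every enzyme median kept its sign in all settings run. The cause of these changes was not tested, apart from the fewer or more genes that a filter admits. Scaling moved the median of all genes by at most 0.03. Members near 1 FPKM (Egln3, Ankrd37, Pdk1) and below it (Aldoc, Car9) are limited by depth.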
